A study of Mus musculus with 5 samples.

Results

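The 10 genes described here are protein-coding genes of the mouse mitochondrial genome, taken by their listed symbols from a table of 17818 gene symbols. They are mt-Nd1, mt-Nd2, mt-Nd4 and mt-Nd5 of respiratory complex I, mt-Cytb of complex III, mt-Co1, mt-Co2 and mt-Co3 of complex IV, and mt-Atp6 and mt-Atp8 of complex V, the ATP synthase. The table also held the 3 remaining protein-coding genes of this genome, mt-Nd3, mt-Nd4l and mt-Nd6, which are given only beside the 10. Poly(A) RNA of hearts from male mice with a bone marrow transplant was sequenced. The groups were 2 libraries from Tet2+/- mice given oridonin (Tet2 oridonin), 2 from Tet2+/- mice given vector (Tet2 vector) and 1 from a wild-type mouse given vector (WT). All mice had received a transplant, with 12 months since then and 2 months of treatment by the time label. Titles of the samples carry a month of 1 or 2 instead. That number was used only to tell the libraries of a group apart, and whether they are replicates or time points cannot be told apart. The labels give no strain, age or dose, and do not say whether the Tet2+/- genotype was that of the donor marrow or of the recipient. They do not say whether the replicates were separate animals, so the p-values below measure only the spread between these samples.

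The mitochondrial genome is a small circle of DNA kept in many copies per cell. Both of its strands are transcribed into long RNAs, which are cut mostly at the tRNAs that lie between the genes. Most of the resulting mRNAs get short poly(A) tails. Each of the encoded proteins is a membrane subunit of the respiratory chain or of ATP synthase and works together with subunits encoded in the nucleus. The heart meets nearly all of its ATP demand by this route and its muscle cells are packed with mitochondria.

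All 10 lie on the plus strand of chromosome M (GRCm38, the assembly of mm10), and mt-Nd6 on the minus strand. None has an intron. In the order of the genome they are mt-Nd1 (chrM:2751-3707), mt-Nd2 (chrM:3914-4951), mt-Co1 (chrM:5328-6872), mt-Co2 (chrM:7013-7696), mt-Atp8 (chrM:7766-7969), mt-Atp6 (chrM:7927-8607), mt-Co3 (chrM:8607-9390), mt-Nd4 (chrM:10167-11544), mt-Nd5 (chrM:11742-13565) and mt-Cytb (chrM:14145-15288). The shortest is mt-Atp8, at 204 bases. Its last 43 bases are also the first of mt-Atp6, read in another frame, and the 2 genes stay together on a shared mRNA. It is shown whole because its counts were far below those of the others. The bases in capitals are the ones shared with mt-Atp6.
mt-Atp8: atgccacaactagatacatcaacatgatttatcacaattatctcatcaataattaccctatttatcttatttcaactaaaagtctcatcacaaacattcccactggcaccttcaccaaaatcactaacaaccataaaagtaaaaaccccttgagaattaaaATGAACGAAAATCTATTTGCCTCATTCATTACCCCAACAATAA

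The genes mt-Co3, mt-Nd4 and mt-Cytb end in a lone T past the last whole codon. In these the stop codon is made complete only by the poly(A) tail, and the labels' protocol selected poly(A) RNA. The last 30 bases of each show this end, with the T in capitals (chrM:9361-9390, chrM:11515-11544 and chrM:15259-15288, plus strand). The other 7 end in TAA or TAG.
mt-Co3 end: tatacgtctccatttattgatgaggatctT
mt-Nd4 end: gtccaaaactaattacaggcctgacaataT
mt-Cytb end: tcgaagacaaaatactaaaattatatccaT

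Copies of mitochondrial DNA also lie in the nuclear genome, and they decide which of the 10 a sequencing read can be assigned to without doubt. Every stretch of 100 bases of each gene was searched in the annotated transcripts of the nuclear genome (GENCODE release M21, GRCm38). For mt-Co2, mt-Atp6 and mt-Co3 nearly every stretch recurred unchanged, at 99.5%, 99.5% and 99.9%. Their copies are the unprocessed pseudogenes Gm28661 (681 of 681 aligned bases identical), Gm10925 (678 of 678) and Gm28437 (783 of 783). For mt-Nd4 the share was 60.8%, with Gm28439 identical over 876 of 876 bases. For mt-Co1 it was 30.8%, and for mt-Nd2 3.19%. It was 0 for mt-Nd1, mt-Nd5, mt-Cytb and mt-Atp8. The mt-Nd1, mt-Cytb and mt-Atp8 genes had no annotated transcript at 95% identity over 100 bases or more, and the copy of mt-Nd5, Gm4076 on chromosome 13, differed at 46 of 954 aligned bases.

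Copies stood side by side. There were 7 annotated in a run of 4663 bases on chromosome 1 (chr1:24611535-24616197, minus strand), in the same order as on chromosome M, from the end of mt-Co1 (Gm29216) to mt-Nd4 (Gm28439). They include Gm10222, a copy of mt-Nd4l. Gm29216 differed from mt-Co1 at 1 of 483 aligned bases, Gm28438 from mt-Nd3 at 1 of 345, and the other 5 at 0. The place where mt-Atp8 would lie falls in a gap of 233 bases between Gm28661 and Gm10925 that holds no annotated transcript (chr1:24614652-24614884), and its sequence was not analysed here. Windows of 60 bases show how copies differ. The window of mt-Co1 (chrM:6008-6067) is set against its copy Gm13340 (chr2:22588908-22588967, minus strand), with the differing bases in capitals. Counted from the first base of mt-Co1 these are G696A, T699C, G717A and C720T. The window of mt-Co2 (chrM:7313-7372) is set against Gm28661 (chr1:24615206-24615265, minus strand) and holds no differing base.
mt-Co1 window: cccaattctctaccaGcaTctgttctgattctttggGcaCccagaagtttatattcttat
Gm13340 window: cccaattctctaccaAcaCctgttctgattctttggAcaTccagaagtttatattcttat
mt-Co2 window: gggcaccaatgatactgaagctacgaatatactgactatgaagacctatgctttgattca
Gm28661 window: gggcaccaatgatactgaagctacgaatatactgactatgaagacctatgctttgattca

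How the authors counted reads that fit more than 1 place was not stated in the labels or the table. The values of mt-Co2, mt-Atp6, mt-Co3 and, in part, mt-Nd4 and mt-Co1 are therefore uncertain. Of the copies named above, 1 was a row of the table, Gm10222, at 54.3 and 69.7 CPM in the Tet2 oridonin libraries, 75.1 and 60.6 CPM in the Tet2 vector libraries and 59.6 CPM in the WT library.

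Levels are CPM, counts scaled to a common library total. The totals were 14626806 and 14574823 counts for Tet2 oridonin, 15535778 and 15334618 for Tet2 vector and 15002794 for WT. In the deposited values each Tet2 library was mixed with its replicate, and this was undone before the results below unless stated. The WT column was likewise a mix, with a second set of counts that is no column here. It could not be undone, so every WT value below is that of the mix as deposited. Cardiomyocyte markers were abundant in every library, with 12 of 12 detected. The Tet2 vector library 1 stood apart by markers of the atrium, the upper chamber of the heart, with 2899 counts of Bmp10 and 4198 of Myl4, against at most 5 and 24.2 in the other 4 libraries. For the members' fold changes, the shares and the nuclear gene lists, values without it are given where it moves them most.

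The counted levels of the 10 genes spanned about 3 orders of magnitude, from mt-Co1, the most abundant, to mt-Atp8. Leaving mt-Atp8 aside, the lowest mean was that of mt-Co3, at 5326 CPM per kilobase. Per kilobase of gene, mt-Co1 averaged 73803 CPM over the 5 libraries. After it came mt-Nd1 (36044 CPM per kilobase), mt-Cytb (35735), mt-Nd2 (21887), mt-Nd4 (19635), mt-Nd5 (10477), mt-Co2 (6817), mt-Atp6 (6040), mt-Co3 (5326) and mt-Atp8 (61.6). The ranges of mt-Nd1 and mt-Cytb overlapped, and so did those of mt-Nd2 and mt-Nd4, although mt-Nd2 was higher in 5 of 5 libraries. The ranges of mt-Co2, mt-Atp6 and mt-Co3 overlapped one another, and that of mt-Co2 also overlapped that of mt-Nd5. Gaps with no overlap lay between mt-Co1 and mt-Nd1, between mt-Cytb and mt-Nd2, and between mt-Nd4 and mt-Nd5. On the same scale mt-Nd6, from the other strand, averaged 9967, mt-Nd3 1346 and mt-Nd4l 682. The strand setting was not given, so the row of mt-Nd6 may also hold RNA of the plus strand.

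**Figure D1:**
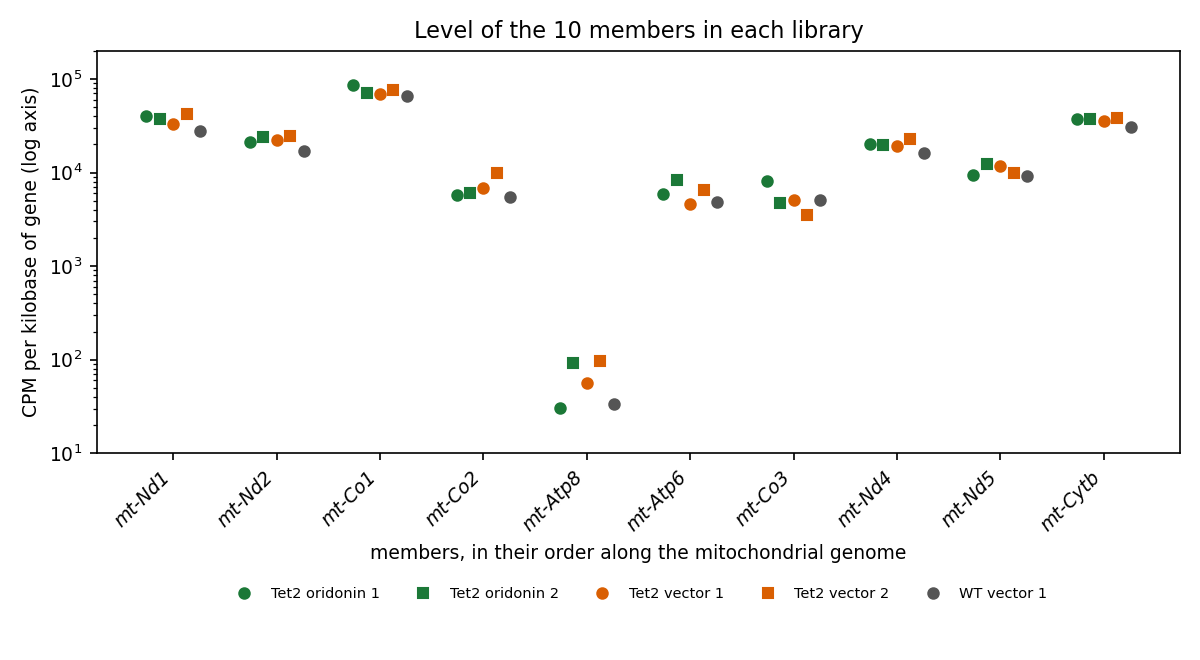
Level of each gene per kilobase (CPM per kilobase, log axis) in the 5 libraries, with genes in the order of the genome. The points of mt-Co1 sit highest, at 66081 to 86614, and those of mt-Atp8 lowest, at 30.5 to 96.5, while mt-Co2, mt-Atp6 and mt-Co3 lie between 3548 and 9906.

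Genes copied in part or not at all and genes copied nearly whole fell at different heights of this order. Of the 6 with at most 60.8% of their stretches copied, leaving mt-Atp8 aside, every mean was at or above 10477 CPM per kilobase. The means of the 3 copied at 99.5% or more lay between 5326 and 6817. Single libraries did not all keep this order. In vector library 2 mt-Co2, at 9906, was above mt-Nd5, at 9862. Among the other protein-coding genes, mt-Nd3 and mt-Nd4l, copied at 97.6% and 98.5%, were lower still. The gene mt-Nd6, with no copied stretch in the annotated transcripts, was close to mt-Nd5, with the limit of the unknown strand setting. The gene mt-Atp8 had no copied stretch in the annotated transcripts and the lowest level of all. The unannotated gap on chromosome 1 where its copy would lie was not analysed, so whether it goes against this pattern cannot be told. At 204 bases mt-Atp8 is shorter than the 250 to 300 bases of the cDNA fragments selected in the labels' protocol. It shares 43 bases with mt-Atp6, and how the authors counted reads that lie in both genes was not stated. The part of copies, of shared bases or of gene length in these levels was not tested.

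**Figure D2:**
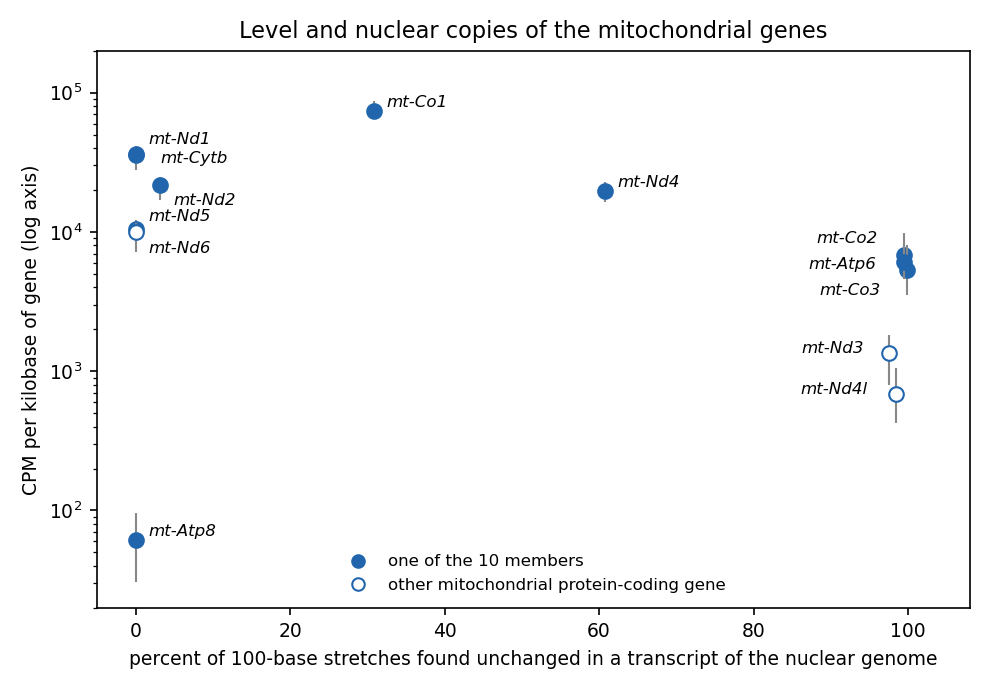
Mean level of each gene (CPM per kilobase, log axis; bars give the lowest and highest of the 5 libraries) against the percent of its 100-base stretches found unchanged in a nuclear transcript. The 3 filled points at the right, mt-Co2, mt-Atp6 and mt-Co3, lie below the filled points with at most 60.8%, except mt-Atp8 at 61.6.

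The 4 genes of complex I encode core subunits of its membrane arm. The mt-Nd1 protein lies where quinone binds, and mt-Nd2, mt-Nd4 and mt-Nd5 form the proton-pumping modules. For mt-Nd1 the levels were 38688 and 35584 CPM in the Tet2 oridonin libraries, 31835 and 39915 CPM in the Tet2 vector libraries and 26448 CPM in the WT library. The WT library was the lowest, and the Tet2 groups overlapped. For mt-Nd2 they were 22044 and 25015 CPM under oridonin, 23199 and 25724 CPM under vector and 17613 CPM in WT. The same order held, with WT below all 4 Tet2 libraries. For mt-Nd4 they were 27608 and 27203 CPM under oridonin, 26527 and 31439 CPM under vector and 22507 CPM in WT, again the lowest. For mt-Nd5 they were 17156 and 22318 CPM under oridonin, 21322 and 17989 CPM under vector and 16769 CPM in WT. Here the WT value lay close to oridonin library 1 and vector library 2.

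The gene mt-Cytb encodes cytochrome b, the only subunit of complex III made in the mitochondrion. Its levels were 42822 and 42274 CPM in the Tet2 oridonin libraries, 40485 and 43617 CPM in the Tet2 vector libraries and 35206 CPM in WT. It was the steadiest of the 10 between replicates, 0.02 log2 apart under oridonin and 0.11 under vector.

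The mt-Co1 and mt-Co2 proteins carry the metal centres of complex IV, cytochrome c oxidase, and mt-Co3 is a further core subunit. For mt-Co1, the catalytic subunit, the levels were 133819 and 109837 CPM in the Tet2 oridonin libraries, 106905 and 117471 CPM in the Tet2 vector libraries and 102096 CPM in WT. Its highest value was in oridonin library 1 and its lowest in WT. For mt-Co2, which takes electrons from cytochrome c, they were 3963 and 4124 CPM under oridonin, 4728 and 6776 CPM under vector and 3722 CPM in WT. Both vector libraries were above both oridonin libraries. For mt-Co3 they were 6365 and 3721 CPM under oridonin, 3996 and 2782 CPM under vector and 4015 CPM in WT. Oridonin library 1 was the highest and vector library 2 the lowest, the reverse of mt-Co2 in vector library 2.

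The mt-Atp6 protein is the membrane subunit through which protons pass in ATP synthase, and mt-Atp8 is a small subunit beside it. For mt-Atp6 the levels were 4049 and 5641 CPM in the Tet2 oridonin libraries, 3115 and 4478 CPM in the Tet2 vector libraries and 3285 CPM in WT. For mt-Atp8 they were 6.22 and 18.6 CPM under oridonin, 11.4 and 19.7 CPM under vector and 6.88 CPM in WT. These rest on 91 and 271 counts under oridonin, 177 and 302 under vector and 103 in WT, where every other member had at least 42655. Although the 2 genes overlap, mt-Atp8 had 0.154% and 0.330% of the counts of mt-Atp6 in the oridonin libraries, 0.366% and 0.440% in the vector libraries and 0.210% in WT. These percentages are not corrected for gene length.

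The replicates differed by a median of 0.23 log2 for the 10 genes under oridonin and 0.29 under vector, against 0.23 and 0.35 for all genes tested and 0.16 and 0.23 for the 86 genes above 1000 CPM. Under vector the 4 widest gaps were those of mt-Atp8, mt-Atp6, mt-Co3 and mt-Co2. Under oridonin mt-Atp8, mt-Co3 and mt-Atp6 were widest, while mt-Co2 was below mt-Nd5, mt-Co1, mt-Nd2 and mt-Nd1. The replicates of mt-Atp8 were 1.57 log2 apart under oridonin and 0.79 under vector. Those of mt-Co3, mt-Atp6 and mt-Co2 were 0.77, 0.48 and 0.06 apart under oridonin and each 0.52 under vector. The other 6 were at most 0.38 apart in either group. Of the 4 genes widest under vector, 3 are the ones with an exact nuclear copy over nearly their whole length and mt-Atp8 is the one with few counts. The part of copies or of count number in these gaps was not tested.

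Together the 10 took 29.7% and 27.6% of all counts in the Tet2 oridonin libraries, 26.2% and 29.0% in the Tet2 vector libraries and 23.2% in the WT library. The 95% Wilson intervals reach at most 0.0234 percentage points to either side and cover counting error only. The means were 28.6% ± 1.47 for oridonin and 27.6% ± 1.99 for vector (SD, n = 2 each), which is 1.24 and 1.19 times the WT share. The oridonin and vector groups overlapped. The WT share was below all 4 others, by more than the SD of either group, but WT has no replicate. In whole hearts fewer cells of a type and less RNA per cell cannot be told apart. With 2 against 2 libraries an exact two-sided permutation test cannot give a p below 0.333. Without vector library 1 the vector share is 29.0%.

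By complex, complex IV held 48.6% and 42.7% of the counts of the 10 under oridonin, 44.1% and 43.8% under vector and 47.4% in WT. Complex I held 35.6% and 39.9% under oridonin, 39.2% and 39.6% under vector and 36.0% in WT. Complex III stayed between 14.4% and 15.4%, and complex V between 1.19% and 2.05%. Oridonin library 1 and WT had the most complex IV and the least complex I, and the oridonin libraries differed more from each other than the vector libraries did.

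**Figure D3:**
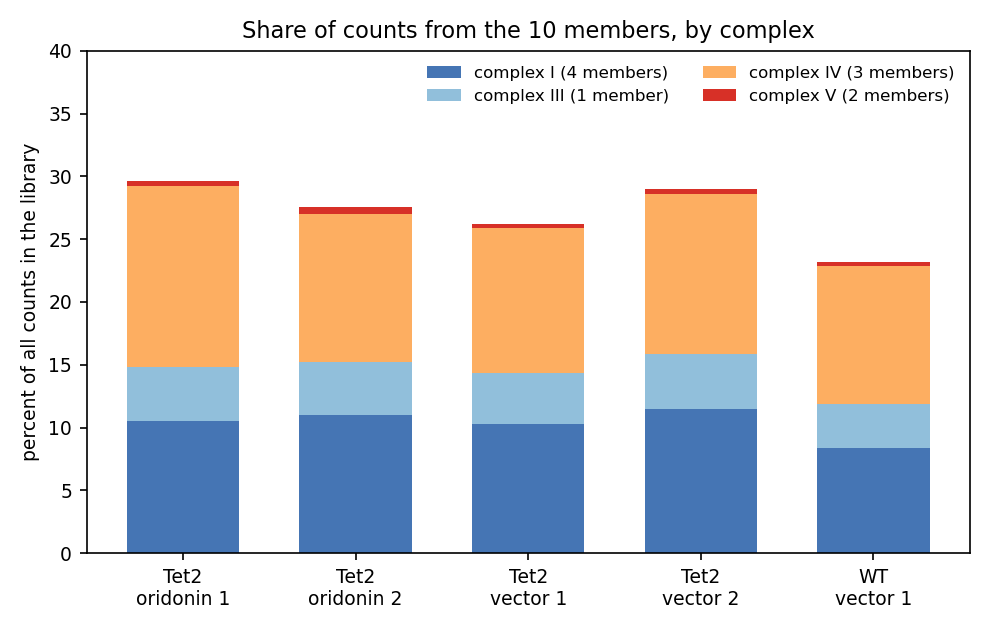
Percent of all counts of a library that came from the 10 genes, stacked by complex, in the 5 libraries. The stacks of the 4 Tet2 libraries reach 26.2% to 29.7% and that of WT 23.2%, with complex IV and complex I as the widest bands in each.

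Whether oridonin moved these genes in Tet2 hearts was asked by setting Tet2 oridonin against Tet2 vector. Members lay on both sides of 0, with 5 higher and 5 lower under oridonin (8 higher with TMM scaling, which moved the median of all genes by 0.08 log2), while 40.2% of the 12734 genes tested were higher. Their median log2 fold change was 0.01, against -0.05 for all genes tested. Of the 10, 0 passed the false discovery rate (FDR) of 0.05 in limma, and of all genes 0% did. At an unadjusted p under 0.05, 1 member passed, mt-Co2, where 2.6% of all genes did. It was also the only member whose groups did not overlap, on the lower side, where 17.8% of all genes stood; on the higher side there were 0 members and 8.37% of all genes. The log2 fold change of mt-Co2 was -0.49 ± 0.20 (SE; limma, unadjusted p = 0.0488, adjusted p = 1.00).

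The other genes of complexes IV and V with whole nuclear copies went the other way. For mt-Co3 the log2 fold change was 0.55 ± 0.30, and for mt-Atp6 it was 0.36 ± 0.24 (limma, adjusted p = 1.00 for both). For mt-Atp8 it was -0.48 ± 0.55. The 6 remaining members, which make up most of the counts, lay between -0.08 for mt-Nd4 and 0.11 for mt-Co1, each within 1 SE of 0. Vector library 1 and oridonin library 2 set the sign of the median, which was -0.07 without the first and -0.02 without the second. The log2 fold change of mt-Co2 was -0.74 without vector library 1 (limma, adjusted p = 0.362) and -0.23 without vector library 2 (limma, adjusted p = 0.832), and with each oridonin library left out it was -0.51 to -0.46. That of mt-Co3 was 0.16 without oridonin library 1 and 0.93 without oridonin library 2, and 0.28 without vector library 2. That of mt-Atp6 was 0.094 without vector library 1 and 0.12 without oridonin library 2, and 0.59 to 0.62 without either of the other 2 libraries. That of mt-Atp8 was -0.87 without vector library 1 and -0.08 without vector library 2. It was 0.31 without oridonin library 1 and -1.26 without oridonin library 2.

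Tet2 vector against WT asked how the genes differed with the Tet2+/- genotype under vector. Of the 10, 9 were higher and 1 lower in Tet2 vector hearts, while 50.4% of all genes tested were higher. The median log2 fold change was 0.31, against 0.00 for all genes, and 0.47 without vector library 1. The WT value lay below both Tet2 vector libraries for 8 members, where 35.4% of all genes did so, and above both for mt-Co3, where 32.3% did. Both counts rest on 1 WT library, and no member passed the FDR (limma, 0 members and 0% of all genes). At an unadjusted p under 0.05, 2 members passed, against 9.59% of all genes. On the values as deposited, where replicates are mixed, limma called 2312 of the 12734 genes tested. These included 4 members, mt-Nd1, mt-Nd2, mt-Nd4 and mt-Co2.

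The 2 members with an unadjusted p under 0.05 were mt-Nd2, with a log2 fold change of 0.47 ± 0.17 (limma, unadjusted p = 0.0316, adjusted p = 0.497), and mt-Co2, with 0.61 ± 0.24 (limma, unadjusted p = 0.0459, adjusted p = 0.514). The log2 fold changes of complex I members were 0.43 ± 0.19 for mt-Nd1, 0.36 ± 0.17 for mt-Nd4 and 0.22 ± 0.22 for mt-Nd5. For mt-Cytb the log2 fold change was 0.26 ± 0.15, and for mt-Co1, the most abundant, 0.13 ± 0.18. The highest estimate was that of mt-Atp8, 1.12 ± 0.67, from the fewest counts. For mt-Atp6 it was 0.19 ± 0.30 and for mt-Co3 -0.27 ± 0.36. Without vector library 1 the log2 fold change was 0.10 for mt-Nd5, 0.86 for mt-Co2, -0.53 for mt-Co3, 0.45 for mt-Atp6 and 1.51 for mt-Atp8. Without vector library 2 it was 0.35 for mt-Co2, -0.0063 for mt-Co3, -0.08 for mt-Atp6 and 0.72 for mt-Atp8. Without vector library 1, too, 9 of the 10 were above WT, and 46.2% of all genes were. The 3 other protein-coding genes were also higher in Tet2 vector hearts, with a log2 fold change of 0.61 ± 0.19 for mt-Nd6 (limma, unadjusted p = 0.0170, adjusted p = 0.456). Its level was 4914 and 5857 CPM under oridonin, 5389 and 5981 CPM under vector and 3724 CPM in WT. With the strand setting unknown, these values may include RNA of the plus strand.

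For Tet2 oridonin against WT all 10 log2 fold changes were above 0, where 43.8% of genes tested were, and the WT value was below both oridonin libraries for 8 of them, where 31.9% were. It was above both for 0, where 41.7% were. The WT library is shared with the comparison before, so these counts are not separate evidence. The median was 0.28, against -0.06 for all genes. In limma 0 members passed the FDR, as did 0% of genes, and 2 had an unadjusted p under 0.05, against 6.21% of genes. These were mt-Nd1 with a log2 fold change of 0.49 ± 0.19 (limma, unadjusted p = 0.0425, adjusted p = 0.791) and mt-Nd2 with 0.42 ± 0.17 (limma, unadjusted p = 0.0497, adjusted p = 0.791). The others ran from 0.12 ± 0.24 for mt-Co2 to 0.64 ± 0.67 for mt-Atp8, with mt-Atp6 at 0.54 ± 0.30.

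**Figure D4:**
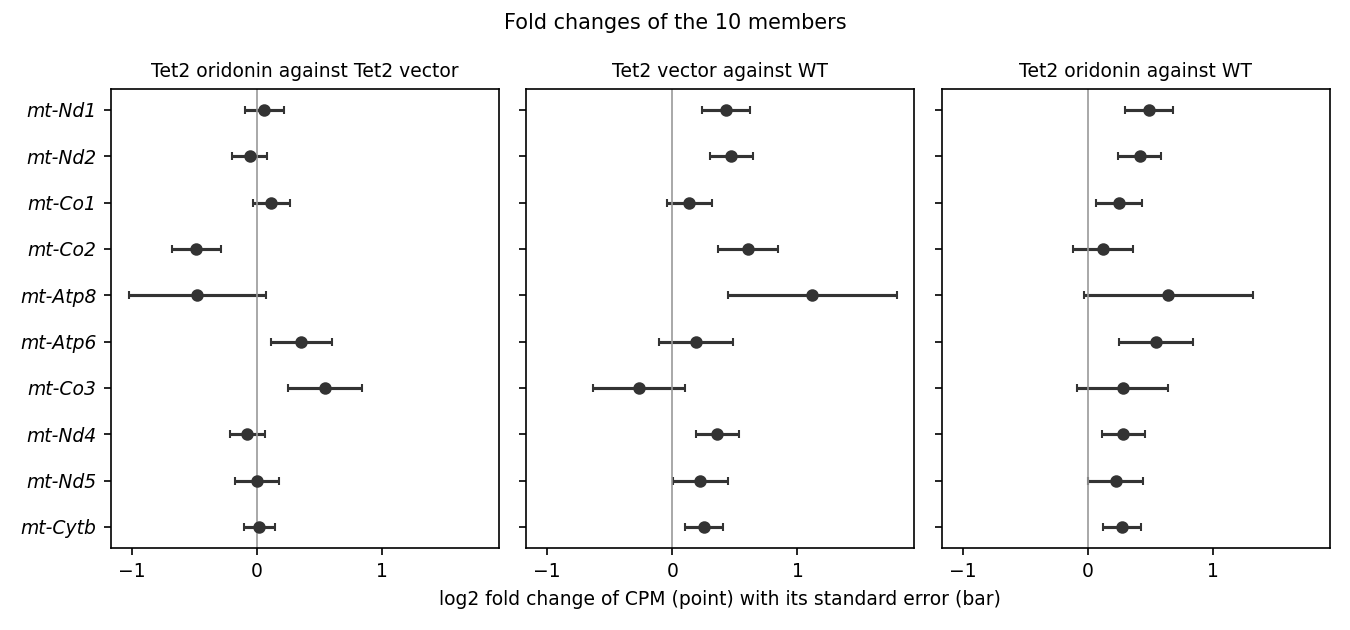
Log2 fold change of CPM for each of the 10 genes (point) with its standard error (bar) in the 3 comparisons. Against WT most points lie to the right of 0, with mt-Co3 at -0.27 in Tet2 vector as the exception, and between the Tet2 groups 6 points lie between -0.08 and 0.11.

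Ratios of counts within a library do not depend on its scaling, and those below are not corrected for gene length. Set against mt-Co1, mt-Co2 stood at 2.96% and 3.75% in the oridonin libraries, 4.42% and 5.77% in the vector libraries and 3.65% in WT. Both vector libraries were thus above the other 3. The ratio of mt-Co3 to mt-Co1 was 4.76% and 3.39% under oridonin, 3.74% and 2.37% under vector and 3.93% in WT, and the groups overlapped. That of mt-Atp6 was 3.03% and 5.14% under oridonin, 2.91% and 3.81% under vector and 3.22% in WT. No copy of mt-Cytb or mt-Nd1 was found among the annotated transcripts. The ratio of mt-Cytb to mt-Co1 was 32.0% and 38.5% under oridonin, 37.9% and 37.1% under vector and 34.5% in WT. For mt-Nd1 it was 28.9% and 32.4% under oridonin, 29.8% and 34.0% under vector and 25.9% in WT.

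The proteins that copy, transcribe, process and translate this genome, and the partner subunits of the 10, are encoded in the nucleus. In Tet2 vector against WT, 0 genes of any of these lists passed the FDR in limma. At an unadjusted p under 0.05, where 9.59% of all genes passed, there were 7 of 77 for the ribosome, 3 of 11 for transcription and 1 of 16 for complex IV, each higher in Tet2 vector hearts. There were also 1 higher and 2 lower of 21 for mitochondrial DNA maintenance, 1 lower of 25 for RNA processing and 1 lower of 12 for biogenesis regulators, and 0 for complexes I, II, III and V. Subunits of the mitochondrial ribosome, which translates the mRNAs of the 10, were higher in Tet2 vector hearts for 69 of 77 tested (50.4% of all genes were), with a median of 0.24 against 0.00 for all genes. Mrpl45, a ribosomal protein, was at 77.7 and 72.8 CPM under oridonin, 76.3 and 74.7 CPM under vector and 46.0 CPM in WT, a log2 fold change of vector against WT of 0.71 ± 0.21 (limma, adjusted p = 0.439). For Mrpl19 this fold change was 0.82 ± 0.24 and for Mrpl34 0.81 ± 0.24. Nuclear subunits were higher for 30 of 36 in complex I (median 0.14), 4 of 9 in complex III (-0.03), 15 of 16 in complex IV (0.16) and 14 of 16 in complex V (0.15). Complex II, which has no mitochondrially encoded subunit, had 3 of 4 higher, with a log2 fold change of -0.44 ± 0.19 for its catalytic subunit Sdha.

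Among 11 genes of mitochondrial transcription, 8 were higher in Tet2 vector hearts, with a median of 0.37. Tefm, the elongation factor, was at 23.8 and 24.8 CPM under oridonin, 27.7 and 24.7 CPM under vector and 16.8 CPM in WT, with a log2 fold change of vector against WT of 0.64 ± 0.24. Tfb2m, the initiation factor that melts the promoter, had a log2 fold change of -0.46 ± 0.23, and Tfb1m, which methylates the ribosomal RNA, of 0.80 ± 0.33. Of 25 genes of RNA processing and stability, 13 were higher (median 0.01). Mtpap, the poly(A) polymerase, had a log2 fold change of 0.57 ± 0.24, Elac2, which cuts at the 3′ ends of tRNAs, of -0.62 ± 0.24, and Lrpprc, which stabilises the mRNAs, of -0.37 ± 0.22. Of 21 genes of mitochondrial DNA maintenance, 11 were higher (median 0.02), with a log2 fold change of -0.74 ± 0.23 for Polg, the DNA polymerase. Regulators of mitochondrial biogenesis were higher for 3 of 12 (median -0.21), with log2 fold changes of -0.69 ± 0.22 for the transcription factor Yy1 and -1.82 ± 0.86 for the fatty-acid receptor Ppara. Without vector library 1, 74 of 77 ribosome genes (median 0.38), 33 of 36 of complex I (0.34), 6 of 9 of complex III (0.09), 16 of 16 of complex IV (0.29), 14 of 16 of complex V (0.26), 6 of 11 of transcription (0.31) and 2 of 12 biogenesis regulators (-0.38) were higher, against a median of -0.05 for all genes. Among the nuclear genes named here the lowest adjusted p in limma was 0.439, that of Mrpl45.

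In Tet2 oridonin against Tet2 vector the same lists had 27 of 77 higher for the ribosome (median -0.03), 13 of 36 for complex I (-0.03), 7 of 9 for complex III (0.11), 6 of 16 for complex IV (-0.08), 5 of 16 for complex V (-0.03) and 2 of 11 for transcription (-0.08). Also higher were 11 of 21 for mitochondrial DNA maintenance (0.0045), 11 of 25 for RNA processing (-0.04) and 4 of 12 biogenesis regulators (-0.04). For complex II it was 1 of 4 (-0.04). All genes tested had a median of -0.05, and 40.2% were higher. In limma 0 genes of these lists passed the FDR or had an unadjusted p under 0.05. Without vector library 1, 8 of 77 were higher for the ribosome (median -0.15), 3 of 36 for complex I (-0.20), 5 of 9 for complex III (0.02), 0 of 16 for complex IV (-0.19), 3 of 16 for complex V (-0.15) and 5 of 11 for transcription (-0.00), against 51.4% and a median of 0.01 for all genes. That fit also had 11 of 21 higher for mitochondrial DNA maintenance (0.09), 12 of 25 for RNA processing (-0.07) and 9 of 12 biogenesis regulators (0.12). For complex II it had 1 of 4 (-0.11). Trmt10c is a subunit of the RNase P that cuts at the 5′ ends of mitochondrial tRNAs. It was at 15.6 and 15.6 CPM under oridonin, 23.9 and 20.3 CPM under vector and 22.2 CPM in WT. Its log2 fold change of oridonin against vector was -0.50 ± 0.21 (limma, unadjusted p = 0.0531, adjusted p = 1.00). Vector libraries are shared by both comparisons, which bears on any reading of them side by side.

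**Figure D5:**
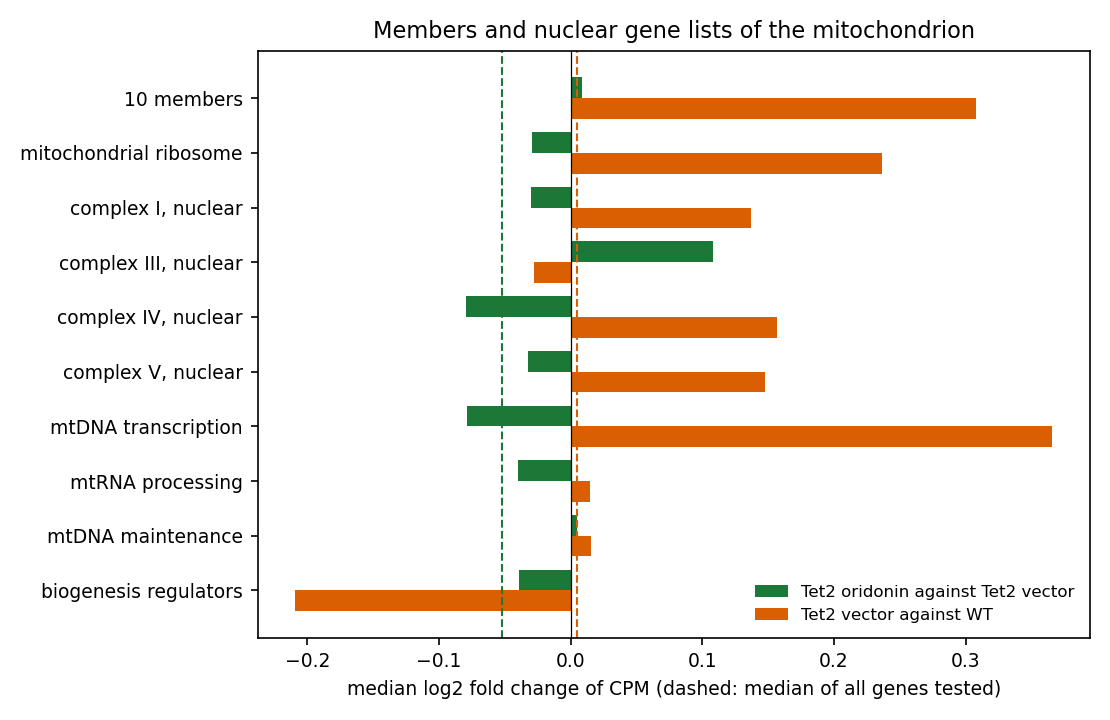
Median log2 fold change of the 10 genes and of nuclear gene lists in Tet2 oridonin against Tet2 vector and in Tet2 vector against WT; dashed lines give the median of all genes tested. In Tet2 vector against WT the 10 genes stand at 0.31, transcription at 0.37 and the ribosome at 0.24, and in oridonin against vector the bars stay between -0.08 and 0.11.

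Cell makeup was measured beside these results. Summed cardiomyocyte markers were at 64418 and 70755 CPM in the Tet2 oridonin libraries, 63751 and 55705 CPM in the Tet2 vector libraries and 69815 CPM in WT, with 12 of 12 detected and 0 listed at 0. The WT library, lowest for the summed share of the 10 genes though not for each of them, was the second highest for the sum of these markers. Taken singly, 6 of the 12 were higher and 6 lower in Tet2 vector against WT (median log2 fold change -0.10), where 50.4% of all genes tested were higher. In Tet2 oridonin against WT 7 were higher and 5 lower (0.09), where 43.8% of all genes were higher. Summed fibroblast markers (8 of 8 detected) were at 794 and 832 CPM under oridonin, 1475 and 1612 CPM under vector and 948 CPM in WT. Summed macrophage markers (10 of 10) were at 262 and 250 CPM under oridonin, 368 and 260 CPM under vector and 201 CPM in WT, so WT was lowest for these as well. Summed atrial markers were at 29.8 and 32.7 CPM under oridonin, 1104 and 104 CPM under vector and 63.1 CPM in WT, with Myl7 and Sln at 0 in WT, Sln at 0 in oridonin library 1 and vector library 2, and Bmp10 at 0 in oridonin library 2. The part of cell makeup in the values of the 10 was not tested.

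Across the 5 libraries, centred log2 levels of the 10 genes averaged -0.00 and 0.14 under oridonin, -0.03 and 0.17 under vector and -0.28 in WT. The member nearest to this mean profile was mt-Nd2, with a root-mean-square difference of 0.05 log2, and the farthest were mt-Co3 at 0.46 and mt-Atp8 at 0.57. The nuclear genes nearest to it over 5 libraries were Irx4, Tsr2, Meaf6, Mrpl49 and Srprb, with differences of 0.0177 to 0.0339. They were picked as the closest of all nuclear genes tested, so near matches come with the choice. A link between them and the 10 genes was not tested. Irx4 was at 33.1 and 35.8 CPM under oridonin, 32.6 and 36.4 CPM under vector and 27.2 CPM in WT. Mrpl49, a protein of the mitochondrial ribosome, was at 39.8 and 44.4 CPM under oridonin, 41.1 and 44.9 CPM under vector and 32.6 CPM in WT.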

How the data were processed

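Per the labels' protocols, NEBNext Ultra libraries were made from poly(A) RNA of heart, 5 in all. The submitters' processing notes name the build mm10. Aligner, counter, annotation and strand setting were not given in the sources used here. For each library the authors deposited log2 values, in form log2 of CPM with 0.5 added to each count, and 0 columns were left without a sample.

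In each Tet2 column the library weighed 0.75 and its replicate 0.25 on the log2 scale. Undoing this gave whole counts (within 0.01) for 99.9% of genes, against 9.06% to 10.4% as deposited. The WT column was likewise a mix, with a second set of counts that is no column here. Among 4706 genes with 20 to 200 counts the mix moves a value by an estimated -0.043 to 0.0368 log2 (0.1 to 99.9 percentiles). The estimate fits a pair of whole counts to each value. It kept only pairs of similar size and took the one nearest to equal, so larger shifts could be missed. All members but mt-Atp8 have more counts, so the shift was not estimated for them. WT was used as deposited, as 1 sample.

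The filter asked for 1 CPM in 2 or more libraries and left 12734 genes, all 10 members among them. Limma 3.58.1 (R 4.3.3; trend, robust) was fitted to unmixed values with group as the term, with 2 residual degrees of freedom that come from the Tet2 pairs, whose spread WT is assumed to share. P-values were adjusted by Benjamini-Hochberg over all genes. The procedure was tested on simulated data. Nuclear copies were searched with blastn 2.17.0 and by exact matching in GENCODE M21 transcripts, from which the sequences come. From each nuclear list, up to 4 genes with the smallest unadjusted p in a comparison could be named, and 5 genes nearest to the mean profile. Members and lists were chosen with earlier results of these data known. Alternatives covered scaling, filters, the deposited values, voom, empirical Bayes without the robust option, the replicate block and each library left out. The nuclear lists without vector library 1 were added after the data were seen.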

Additional observations from a re-analysis of the deposited data

How the results depend on the processing

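Counts of members past the FDR were 0 in all 3 comparisons under every alternative except the values as deposited, in which replicates were mixed and their spread is smaller by construction. There limma called, of 12734 genes, 2312 in Tet2 vector against WT, 996 in Tet2 oridonin against WT and 76 in oridonin against vector. The first held 4 members, mt-Nd1, mt-Nd2, mt-Nd4 and mt-Co2. The second held 2, mt-Nd1 and mt-Nd2, and the third 0. The median of the members in Tet2 vector against WT was 0.40 with scaling to counts without mitochondrial rows, and 0.25 to 0.47 with each library left out in turn. That scaling moved the median of all genes by 0.11 in Tet2 oridonin against WT. The share of the WT library was 23.3% with the other mitochondrial rows and copies out of the total.

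Same-numbered Tet2 libraries did not pair, with a correlation of their deviations from group means of -0.296. With the replicate number as a block the median was 0.27 in Tet2 vector against WT, where mt-Co3 stood at 0.057 and mt-Atp6 at -0.065, and mt-Co2 stood at -0.024 in Tet2 oridonin against WT. The block called 9, 10 and 6 genes and 0 members in oridonin against vector, vector against WT and oridonin against WT. A crossed pairing, added after the data were seen, called 44, 432 and 184 genes and 0 members.

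In oridonin against vector several small log2 fold changes had the other sign under another setting. With TMM scaling mt-Nd2 was 0.021, mt-Nd4 0.0021 and mt-Nd5 0.076. With median-of-ratios scaling mt-Nd2 was 0.0027 and mt-Nd5 0.058, and with scaling without mitochondrial rows mt-Nd5 was 0.018. With each library left out in turn, mt-Nd1 ranged from -0.11 to 0.22, mt-Nd2 from -0.15 to 0.034, mt-Nd4 from -0.20 to 0.047, mt-Nd5 from -0.19 to 0.19, mt-Cytb from -0.036 to 0.072, mt-Co1 from -0.029 to 0.26, mt-Co2 from -0.74 to -0.23, mt-Co3 from 0.16 to 0.93, mt-Atp6 from 0.094 to 0.62 and mt-Atp8 from -1.26 to 0.31. In Tet2 vector against WT mt-Atp6 ranged from -0.076 to 0.45, and in oridonin against WT mt-Co3 ranged from -0.11 to 0.67 and mt-Atp8 from -0.14 to 1.43. The cause was not tested. The values of mt-Atp8 rest on 91 to 302 counts, and the part of count number in its spread was not tested.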
